A study of Homo sapiens with 4 samples.

Results

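The transcripts described here belong to genes named LINC plus a 5-digit number, long intergenic non-coding RNA genes without a name for function, whose body lies more than 100 kb from every protein-coding gene body on either strand. Of the 19835 non-coding transcripts measured, 1244 transcripts of 728 such genes met the rule, which used gene names and positions of the GENCODE release 44 annotation on GRCh37 and no measured value. The annotation and table matched for 18373 transcripts, and 7 genes of this naming were left out by the rule. A further 2118 transcripts of 1141 LINC genes lay closer to a coding gene and serve for comparison.

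RNA was measured in 4 libraries, replicates 1 to 4, of HUH7 cells, an established cell line of human liver cancer (hepatocellular carcinoma), with no treatment named. The sample titles call replicates 1 and 3 Huh7-L and replicates 2 and 4 Huh7-H, the sources used here do not say what the letters stand for, and the 4 were analysed as 1 group. All libraries were strand-specific and depleted of ribosomal RNA with Ribo-Zero, although a label names the molecule as polyA RNA. The study used these data to pick lncRNAs above 5 FPKM for a knockdown screen, so the comparison here is with that level. FPKM is the number of fragments scaled by transcript length and by all fragments placed on non-coding transcripts in the library. No source says whether the libraries came from separate cultures, so the p-values reflect variation among the 4 libraries, possibly technical, and whatever sets Huh7-H apart from Huh7-L.

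Long intergenic non-coding RNAs are transcribed, spliced and often polyadenylated like messenger RNAs but code for no known protein. As a class they are known for low levels, for expression limited to few tissues and for exons and promoters that come from transposable elements. Those inside wide gaps between coding genes, called gene deserts, lie far from the promoters of coding genes, and most have no known role.

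A start region is taken as the 250 bases before and the 50 bases after the annotated 5′ end of a transcript, on its own strand, read from GRCh37. That of LINC02484 (chr4:34271321-34271620, minus strand) is shown 5′ to 3′ because this was the most abundant member in which no repeated sequence was found, and its capitals mark the 50 transcribed bases.
LINC02484: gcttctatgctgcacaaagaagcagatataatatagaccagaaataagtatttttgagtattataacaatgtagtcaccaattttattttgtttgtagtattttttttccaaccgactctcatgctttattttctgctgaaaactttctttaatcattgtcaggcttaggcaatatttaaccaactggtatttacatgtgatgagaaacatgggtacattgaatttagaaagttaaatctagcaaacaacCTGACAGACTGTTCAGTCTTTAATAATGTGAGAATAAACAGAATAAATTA

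Most of the members were undetected or low in HUH7 cells. In all, 611 of 1244 (49.1%) were listed at 0 FPKM in all 4 libraries, 403 had a mean above 0 and up to 5 FPKM, and 230 (18.5%), from 189 genes, had a mean above 5 FPKM. The share above 5 FPKM was 18.2% in replicate 1, 19.0% in replicate 2, 18.8% in replicate 3 and 17.5% in replicate 4. The libraries thus differed by little, and in each the share was under that of LINC transcripts nearer to coding genes, which was 24.3% by mean level, and under that of all transcripts, 28.4%. Those of the members that did pass 5 FPKM had a median of 22.4 FPKM, against 24.2 for the nearer LINC transcripts and 27.3 for all, and 35 members were above 100 FPKM.

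Of the members, 580 had a mean of at least 0.1 FPKM and were tested against 5 FPKM with limma on log2(FPKM + 1), with Benjamini-Hochberg adjustment over all 11435 transcripts tested. Above 5 FPKM were 187 (32.2%), against a background of 41.9% of all transcripts tested, and below it were 302 (52.1%), against 43.3%. The other 91 were not placed on either side, 43 of them with a mean above 5 FPKM. The median log2 difference from 5 FPKM was -0.78 over the tested members, -0.55 over the nearer LINC transcripts and -0.17 over all. With transcripts summed per gene, 170 of 393 tested member genes (43.3%) were above 5 FPKM, background 50.3%, and 174 were below, background 38.5%.

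The 2 titles gave the same share of members above 5 FPKM. The share with a mean above 5 FPKM was 18.3% over the 2 Huh7-L libraries and 18.3% over the 2 Huh7-H libraries. Set against Huh7-L with limma, Huh7-H differed in 0 of 580 tested members (16 at an unadjusted p under 0.05, lowest adjusted p = 0.77), against a background of 2 of 11435 transcripts (0.0175%). With 2 libraries a title, a difference in single members could be missed.

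The level was concentrated in few transcripts. The 10 highest members held 51.1% of the summed mean FPKM of all members and the 15 highest 57.8%. LINC02503 (ENST00000510505.1, 4 exons, chr4:104882773-104958700), of which TACR3, a neurokinin receptor gene, is the nearest coding gene at 242 kb, led with 1438, 1723, 1509 and 1186 FPKM in replicates 1 to 4. LINC03000 (ENST00000523648.1, chr5:163723924-163920118), 777 kb from MAT2B, followed with 906, 1631, 1402 and 939 FPKM. Replicates 2 and 3 were high and 1 and 4 low for LINC03000, and its SD of 355 on a mean of 1220 FPKM was among the widest of this set.

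LINC02886 had 1173, 1179, 1353 and 1020 FPKM and LINC01609 had 1145, 1312, 1156 and 942 FPKM, 133 kb from CRISPLD1 and 987 kb from CSMD3 on chromosome 8. LINC02444 on chromosome 12, 488 kb from TRHDE, had 808, 1322, 1206 and 825 FPKM. These ranges overlap, so that the order of the members between about 1040 and 1220 FPKM does not hold in each library. LINC01419 on chromosome 8, which has been studied in liver cancer, had 872, 1030, 801 and 1059 FPKM, with replicates 2 and 4, both Huh7-H, high and no overlap with Huh7-L. Its log2 difference, Huh7-H minus Huh7-L, was 0.32 ± 0.15 (SE) on log2(FPKM + 1) and did not pass limma's test (adjusted p = 0.96). Both Huh7-H libraries were over both Huh7-L libraries in 16.5% of the members above 5 FPKM. The share over all transcripts above 5 FPKM was 16.2%, so this order is not particular to LINC01419. LINC00504 (ENST00000509654.1) had a mean of 901 ± 178 FPKM (SD, n = 4), LINC01116 of 760 ± 75.0 and LINC01967 of 637 ± 103. All 15 were above 5 FPKM in every library and by limma, with log2 differences from 4.89 for LINC01638 to 7.92 for LINC02503. They were chosen as the highest means of these same libraries, which largely fixed that outcome in advance.

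**Figure D1:**
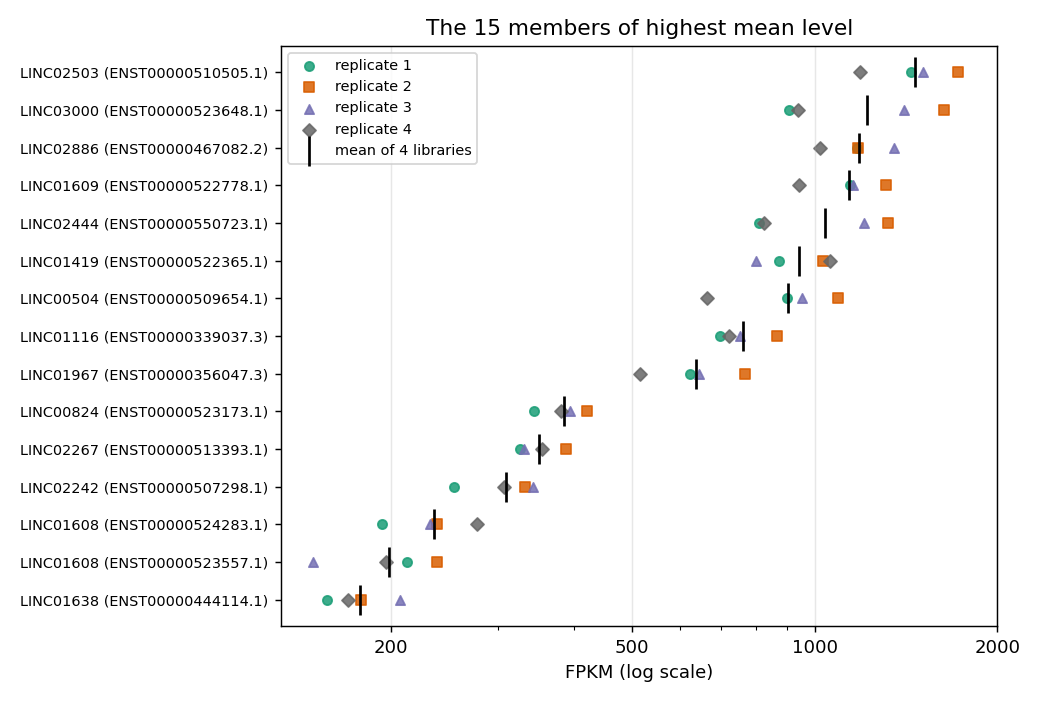
FPKM (horizontal, log scale) of the 15 members of highest mean, 1 row a transcript, with a marker for each of the 4 libraries and a bar at the mean. The rows run from LINC02503 at 1464 FPKM down to LINC01638 at 178 FPKM, and the 4 libraries of neighbouring rows often overlap.

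Chromosomes 4 and 8 held 17.4% of the members and 45.4% of their summed level. Of 87 members on chromosome 8, 17 (19.5%) were above 5 FPKM, while 8 were above 100 FPKM. Over all matched transcripts of that chromosome, 28.2% were above 5 FPKM and 62 of 1039 above 100. Chromosome 4 had the most members, 130, of which 32 (24.6%) were above 5 FPKM and 7 above 100. All matched transcripts there had 26.2% above 5 FPKM and 45 of 947 above 100. The share above 5 FPKM of the chromosome 8 members was thus near that of all members. What set this chromosome apart among the members was a few transcripts at high level. The copy number of these chromosomes in the cells was not measured.

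Replicate 2 tended to be the highest library and replicates 1 and 4 the lowest. It had the highest value in 130 of the 230 members above 5 FPKM (56.5%), against 49.8% of all transcripts above 5 FPKM. Replicates 1 and 4 were lowest in 91 and 96 of these members, and in 1640 and 2287 of all 5625 transcripts above 5 FPKM. Median-of-ratios factors, taken over all transcripts detected in every library, were 0.968, 1.12, 1.02 and 0.925 for replicates 1 to 4. The members held between 0.868% and 1.24% of the summed FPKM of a library. The median coefficient of variation was 12.1% for members above 100 FPKM, 14.8% from 20 to 100, 25.96% from 5 to 20 and 46.8% from 1 to 5 FPKM. The estimated depth was 4500000 to 5060000 fragments a library, at which 5 FPKM on a transcript of the median length of 602.5 nt is about 12.5 fragments. Counting alone then gives a coefficient of variation of 28.3%, so members near 5 FPKM cannot be ordered at this depth.

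The members next to the threshold show this. LINC01194 (ENST00000505196.1) had 4.89, 6.94, 3.67 and 5.32 FPKM and LINC00992 (ENST00000514186.1) had 4.57, 5.11, 6.97 and 4.10 FPKM. LINC00299 had a mean of 5.14 and LINC01186 of 5.02 FPKM. Just below lay LINC02472 at 4.97, LINC02008 at 4.95, LINC01266 at 4.92 and LINC02398 at 4.91 FPKM, the last spread over 5.66, 8.98, 3 and 2.01 FPKM. All 8 had libraries on both sides of 5 FPKM, and limma placed none of them (lowest adjusted p = 0.60, for LINC02398).

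Members with more repeated sequence were more often above 5 FPKM. A transcript's repeated share is the percentage of its 24-base words, sampled 1 in 8, that occur 10 times or more in GRCh37, counting both strands. Of 724 members with none, 33 (4.56%) had a mean above 5 FPKM, of 376 with up to 10% there were 89 (23.7%), of 108 with 10 to 25% there were 77 (71.3%), and of 36 with 25% or more there were 31 (86.1%). Over all matched transcripts the shares were 10.6%, 35.7%, 72.9% and 82.0%, so the members ran from a lower to a slightly higher share. Among the 15 highest members the repeated share ran from 7.35% in a LINC01608 transcript to 72.9% in LINC02503. Reads from other copies of a repeat can be placed on such transcripts by the alignment, and their part in the levels was not tested.

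**Figure D2:**
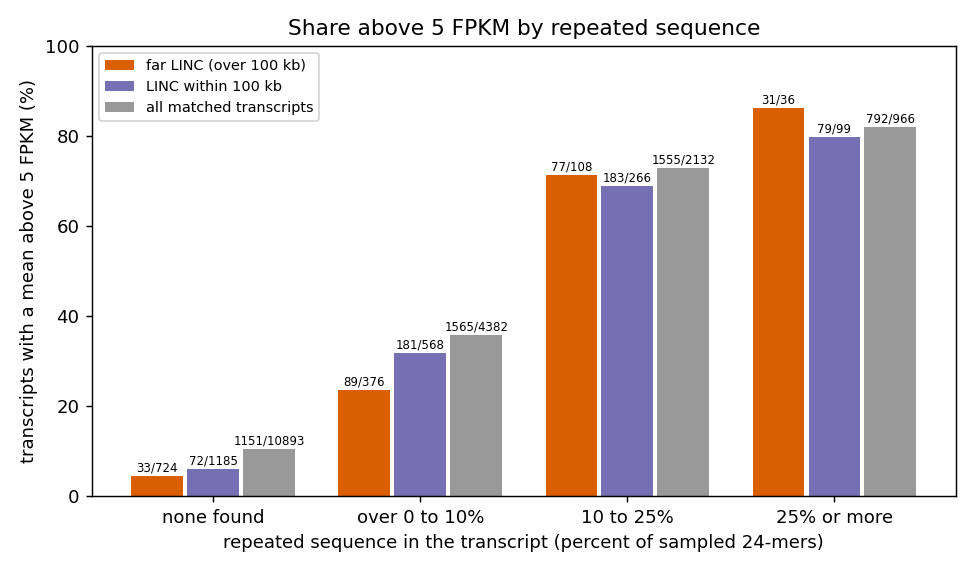
Share of transcripts with a mean above 5 FPKM (vertical, percent) by the repeated share of their sequence, for LINC transcripts over 100 kb from coding genes (orange), those nearer (purple) and all matched transcripts (grey), with the counts over each bar. In each set the bars climb with repeated sequence, for the far LINC transcripts from 4.56% to 86.1%.

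Several of the highest members contain the same stretch. LINC01116 and LINC02242, on chromosomes 2 and 5, match over 233 nt at 98.7% identity, and LINC01116 and LINC00824 over 297 nt at 99.3%. LINC00504 and LINC02503, both on chromosome 4, match over 1025 nt at 94.4% in another LINC00504 transcript (ENST00000505089) and over 345 nt at 96.2% in the one of highest level. RSEM divides reads that fit several transcripts by estimation, so the levels of LINC01116, LINC02242, LINC00824, LINC00504 and LINC02503 depend on each other to a degree that was not tested.

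The 33 members above 5 FPKM with no repeated sequence found were looked at as a set chosen after its values were seen. Their median was 11.6 FPKM, their highest mean 95.7 FPKM, and limma called 20 above 5 FPKM. The choice of means above 5 FPKM favours such calls, so their number is no test of the set. LINC02484 led with its transcripts ENST00000514877.1 at 99.5, 83.9, 121 and 78.4 FPKM and ENST00000513843.1 at 55.0, 79.4, 63.8 and 50.4 FPKM. LINC02484 is also among the most remote members above 5 FPKM, 1613 kb from ARAP2, and its start region is the one shown above. A transcript of LINC02476 (ENST00000431071.1), a gene of pluripotent cells, had 76.7, 87.5, 86.6 and 80.9 FPKM. LINC02616 had 63.7, 58.3, 67.0 and 53.7 FPKM, and LINC02404 had 15.9, 31.3, 24.5 and 33 FPKM, the latter with a spread of 29.7%. The libraries of LINC02476 and LINC02616 stayed within a coefficient of variation of 10%.

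Some start regions recur between member genes. Linking members of different genes whose start regions match over at least 150 bases at 85% identity or more gave 13 groups with 70 members of 52 genes. Of these, 31 (44.3%) had a mean above 5 FPKM, against 199 of the 1174 other members (17.0%), and limma called 26 of the 51 tested (50.98%) above 5 FPKM, background 41.9%. The median repeated share of the transcripts themselves was 5.44% with a shared start and 0% without one. The 2 measures thus moved together, and their separate parts were not tested.

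The start of LINC02253 was shared by 9 members of 7 genes on 7 chromosomes, and the mean of each of them was above 5 FPKM. LINC02253 had 119, 169, 157 and 127 FPKM, LINC01249 had 14.9, 29.0, 19.3 and 9.62 FPKM and LINC01748 had 15.7, 18.1, 17.6 and 13.0 FPKM. LINC02671 was at 16.7 ± 7.09 FPKM and LINC02315 at 12.2 ± 3.70 FPKM. The highest member of the group was LINC01967 at 637 FPKM, and the lowest its other transcript at 6.53 FPKM, which limma did not place. Of 91 other transcripts in the table with this start, 69.2% had a mean above 5 FPKM, and their median was 13.2 FPKM. Passing 5 FPKM was thus not limited to the 9 members. The motif TGTTTAC, searched on both strands, was in the start region of 5 of the 9 members and of 4.57% of all 18373 start regions. The group was formed by matching sequence, which favours a shared motif, so these shares are no test of enrichment.

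The start of LINC02046 had a mean above 5 FPKM in 7 of 8 members of 5 genes. LINC02046 (ENST00000469812.1) had 35.1, 24.8, 25.7 and 20.8 FPKM, and 3 LINC01194 transcripts had means of 17.4, 11.5 and 5.21 FPKM. LINC02504 was at 8.12 FPKM, and LINC01818 at 0.77, 2.86, 0 and 0 FPKM was the 1 member below. The start of LINC00564 was above 5 FPKM in 4 of 4 members, led by LINC00564 at 45.7, 64.2, 48.2 and 46.3 FPKM. The other members of that start, LINC00351, LINC01582 and LINC02045, lay between 5.24 and 6.79 FPKM and were not placed. The motif CCAAT, counted on both strands, occurred 3 or more times in the start regions of all 4 and in 2.54% of all start regions. Copies of the motifs were counted separately and could share bases. A match in sequence formed this group too, so the recurring motif is no test of enrichment. In the largest group with no mean above 5 FPKM, CCAAT was in 4 of 7 start regions, in 1 of them 3 or more times.

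A shared start did not always come with a level above 5 FPKM. None of 7 members of LINC02100, LINC02328, LINC01675 and LINC00944 with another shared start had a mean above 5 FPKM, and the highest, LINC02100, had 1.39, 5.19, 4.90 and 3.75 FPKM. A further group of 9 members had 2 above 5 FPKM, led by LINC02476. The group of LINC02444 at 1040 FPKM had 6 of 11 above, among them LINC02438 at 38.9 and LINC01448 at 26.9 FPKM, while 2 of 3 LINC02505 transcripts with nearly the same start were listed at 0 in all libraries.

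**Figure D3:**
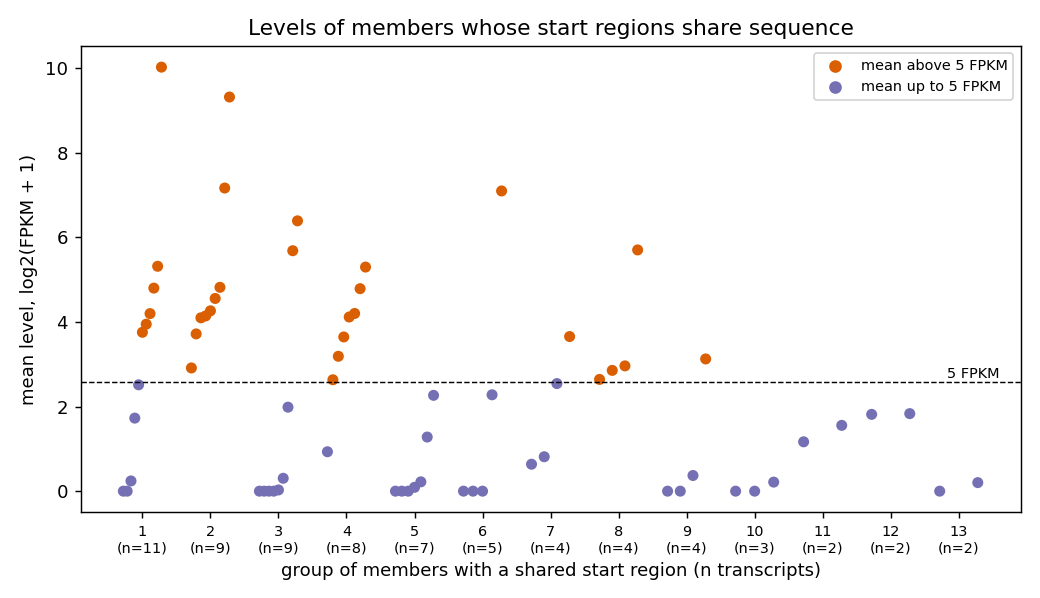
Mean level of each member, log2(FPKM + 1), in the 13 groups with a shared start region, with orange points above and purple points up to 5 FPKM (dashed line). Group 2 is the start of LINC02253, group 4 that of LINC02046 and group 8 that of LINC00564. All 9 points of group 2 and all 4 of group 8 lie above the line, and none of the 7 of group 5.

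Start regions of the members differed in base makeup from those of the table. Their median GC content was 44%, against 49% for all matched transcripts, and 7.40% held 15 or more CpG dinucleotides, against 23.9%. The motif TATAAA was in 23.6% of member start regions and in 15.9% of all, and GGGCGG in 8.68% and 23.2%, on both strands. Within the members, 11.7% of those above 5 FPKM and 5.89% of those listed at 0 had 15 or more CpG. The same contrast held for the nearer LINC transcripts, at 24.3% and 14.1%, and for all matched transcripts, at 32.9% and 15.7%. It is thus not particular to the members. Start regions were taken from annotated 5′ ends, which were not measured here.

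Distance from coding genes had no steady relation to level. The share of LINC transcripts above 5 FPKM was 26.8% up to 10 kb from a coding gene, 22.7% from 10 to 100 kb, 16.4% from 100 to 200 kb, 20.1% from 200 to 500 kb, 22.1% from 500 kb to 1 Mb and 11.3% (11 of 97) beyond 1 Mb. Within each class the libraries spread by an SD of 0.404 to 1.35 percentage points. The shares are counts of transcripts that share genes and were not tested against each other. With members of 25% or more repeated sequence left out, the 4 far classes had 14.97%, 17.8%, 18.9% and 11.5%.

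**Figure D4:**
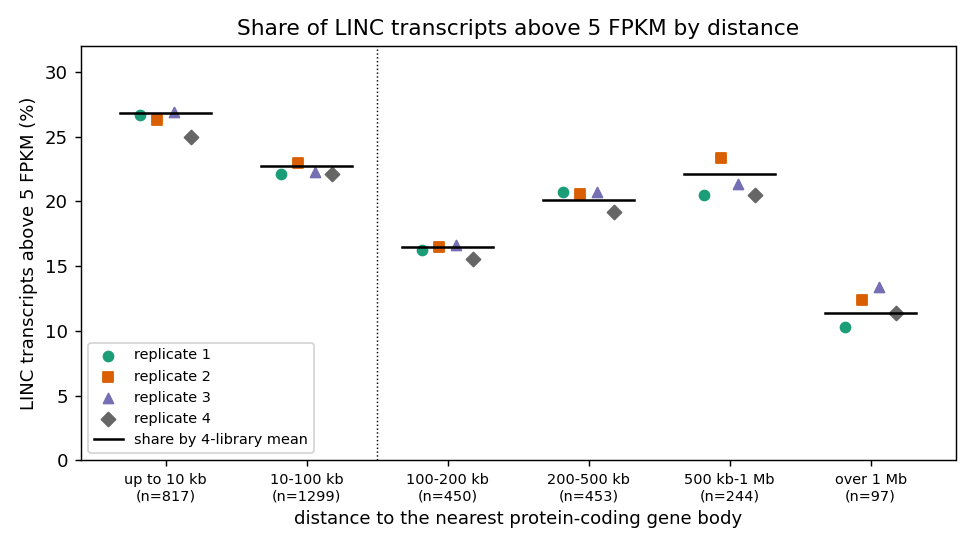
Share of LINC transcripts above 5 FPKM (vertical, percent) by distance to the nearest coding gene body, with a marker for each library and a line for the share by mean level. The members are right of the dotted line at 100 kb. The classes from 100 kb on lie at 16.4%, 20.1%, 22.1% and 11.3%.

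The most remote members above 5 FPKM were LINC02109, 1688 kb from CDH9 on chromosome 5, and both LINC02484 transcripts. LINC02109 (8 exons) had 51.8, 62.3, 53.3 and 51.5 FPKM, with replicate 2 apart from the others. At the other edge, LINC01270, 100.041 kb from CEBPB, had 1 transcript at 15.05 ± 1.73 FPKM and 1 at 6.59 ± 2.85 FPKM that was not placed, and LINC02127, 100.198 kb from SALL1, was listed at 0. Just outside the limit, LINC01853 at 99.643 kb and LINC00423 at 99.412 kb were also listed at 0.

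Some gaps between coding genes held several member genes. The rule itself places each member gene in a gap, and whether they share gaps more than expected was not tested. The 728 genes lay in 406 gaps between coding genes, 162 of which held 2 or more member genes, and 25 held 2 or more with a gene mean above 5 FPKM. In the gap of 3702 kb between SLITRK5 and GPC5 on chromosome 13, 4 of 14 member genes were above 5 FPKM, led by LINC00410 at 64.0, 77.8, 71.1 and 52.9 FPKM. Between ADAMTS5 and N6AMT1 on chromosome 21 there were 4 of 6, with LINC01697 at 72.7 ± 6.74, LINC01695 at 63.5 ± 7.63, LINC00314 at 50.3 ± 11.8 and LINC00161 at 7.20 ± 2.08 FPKM. Between TMEM132B and TMEM132C on chromosome 12, 12 of 19 member genes were listed at 0 beside LINC00939 at 183 ± 47.7 and LINC00507 at 164 ± 41.7 FPKM. Member genes above 5 FPKM and member genes listed at 0 thus lay in the same gap, most plainly in the last.

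Levels also differed within some pairs of member genes that start near each other on opposite strands. Of 17 pairs of member genes that start back to back within 1000 bases, 1 had both genes above 5 FPKM, 6 had 1 and 10 had neither. The pairs were counted by the highest transcript at each start. Over all member genes, 26.6% had a gene mean above 5 FPKM, and whether the pairs depart from that share was not tested. LINC01116 had 697, 867, 753 and 722 FPKM, while LINC01117, which starts 60 bases away on the other strand, had 0.36, 0, 0 and 0 FPKM. LINC00939 (ENST00000507313.1) had 35.4, 51.1, 52.3 and 34.9 FPKM and LINC02826, 271 bases away, had 0, 0, 0 and 0.81 FPKM. LINC01579 had 18.0, 27.2, 23.6 and 16.8 FPKM and LINC01580, 77 bases away, was listed at 0. In each of these 3 pairs, picked for their contrast, 1 gene was high in every library and its partner at or near 0 in every library. LINC01116 shares a stretch with LINC00824, as given above, and the part of that stretch in its level was not tested. LINC02099 and LINC00589, also among the 6, lay apart at 111 and 0.37 FPKM. Others of the 6 lay close together, as LINC01687 at 5.22 beside LINC00308 at 3.22 FPKM and LINC02465 at 5.25 beside LINC02466 at 3.56 FPKM. The pair with both above 5 FPKM was LINC02046 and LINC02045, whose starts belong to different groups and lie 810 bases apart.

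**Figure D5:**
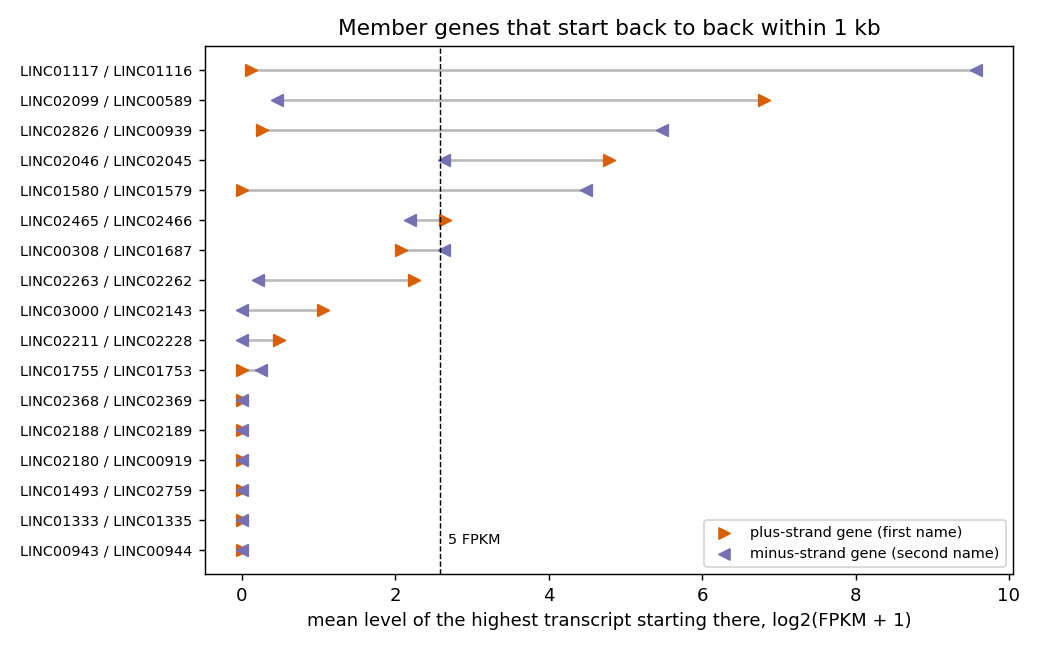
Mean level, log2(FPKM + 1), of the highest transcript at each start in 17 pairs of member genes that start within 1000 bases of each other on opposite strands, with a dashed line at 5 FPKM. LINC01116 and LINC01117 lie farthest apart, and in 1 pair, LINC02046 and LINC02045, both points are right of the line.

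Member genes with several transcripts often rested mainly on 1 of them. Of 104 such genes with a gene mean above 5 FPKM, the leading transcript held a median of 90.1% of the gene's FPKM, and at least 90% in 53. More than 1 transcript was above 5 FPKM in 32 of the 104. The same was not worked out for genes outside the rule. LINC03000, with 16 transcripts the gene of most, summed to 1046, 1818, 1564 and 1083 FPKM, of which ENST00000523648.1 held 88.5%. LINC00470, with 11 transcripts, summed to 73.6 ± 10.6 FPKM and LINC02055, with 10, to 78.2 ± 10.1 FPKM. LINC01091 was the plainest case of transcripts trading places, with 24.7, 22.5, 0 and 31.4 FPKM for ENST00000511919.1 and 10.2, 6.46, 31.2 and 3.55 FPKM for ENST00000508111.1. The gene's sum was 47.6, 50.7, 48.5 and 50.2 FPKM, a coefficient of variation of 2.95%, although limma placed neither transcript. In all, 3 members above 5 FPKM were listed at 0 in a library, and in each the gene's sum there was above 5 FPKM.

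Of 6 short lists of lncRNAs by tissue, set from general knowledge, the member genes above 5 FPKM came from 4. Of liver-enriched lncRNAs, the 1 member gene, LINC00844, had 0.56, 0.52, 0.53 and 0 FPKM and was below 5 FPKM, while 4 of the 8 measured genes outside the rule were above it, among them HULC, a lncRNA of liver cancer, at 693 ± 64.8 FPKM. Of 6 member genes studied in liver cancer, LINC01419 at 940 ± 124 and LINC00662 at 27.985 ± 2.58 FPKM were above 5 FPKM, and LINC00460, LINC01287, LINC01370 and LINC00052 were at or near 0. LINC02476, of pluripotent cells, was above at 208 ± 18.8 FPKM, LINC01108 was below at 0.50 FPKM and LINC00458 had 4.56, 6.82, 2.22 and 2.84 FPKM.

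Of 3 member genes of neural tissue, LINC00507 had 124, 202, 199 and 133 FPKM and LINC01122 had 30.9, 38.7, 31.6 and 32.4 FPKM, while LINC00508 was listed at 0. Annotated exons of LINC00507 and LINC00508 overlap on opposite strands, and the strand setting is not given in the sources used here. Of 4 of blood and immune cells, LINC00861 had 10.6, 10.4, 12.8 and 10.6 FPKM and was above 5 FPKM, and LINC00494, LINC02273 and LINC01871 lay between 0 and 0.21 FPKM. Of muscle, stroma and endothelium, LINC01614, LINC01705 and LINC00702 lay between 0 and 0.19 FPKM. The genes tested in these lists had the backgrounds of 50.3% above and 38.5% below given for all genes. Of the members as a whole, 27 overlap an exon of another gene on the same strand and 141 on the other, 6 and 26 of them above 5 FPKM.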

How the data were processed

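Strand-specific libraries of HUH7 RNA, depleted of ribosomal RNA, were analysed, 4 libraries in 1 group (titled Huh7-L or Huh7-H, which the sources used here do not explain). The authors deposited FPKM values for 19835 non-coding transcripts, which the submitters' processing notes trace to Bowtie 1.01 and RSEM 1.2.3 on hg19 (GRCh37) with Ensembl 68 non-coding models. Coding transcripts were not in that reference, so reads of other RNA that share sequence can be placed on these transcripts. The strand setting is not given in the sources used here.

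Identifiers, without version, were matched to GENCODE 44 on GRCh37, and 636 of the 1244 members had the same version. Lengths, exons and sequences of the others come from newer models. Members and lists were chosen with earlier results of these data known. Named transcripts were the 15 highest, the 4 just above and 4 just below 5 FPKM, the 3 genes of most transcripts, the 3 most remote above 5 FPKM, the 2 genes on each side of 100 kb and listed genes. The shared-start groups, back-to-back pairs, gaps, LINC01091, chromosomes 4 and 8, and the set without repeats were chosen after their values were seen.

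Log2(FPKM + 1) was tested against log2(5 + 1) with limma 3.58.1 in R 4.3.3 (one-sample, mean-variance trend, two-sided, Benjamini-Hochberg, threshold 0.05) where the 4-library mean reached 0.1 FPKM, for transcripts and for genes summed over theirs. The test was checked on simulated data. Log2 differences understate those of low transcripts. Matches were found with blastn 2.17.0. Sequences of the shared starts and stretches are not reported here. Depth was estimated from the steps of low FPKM values of same-version transcripts (65.9% to 67.2% within 0.05 of a whole fragment), and the share was too low for a count test. Alternatives tried were another pseudocount, no filter, thresholds of 1 and 10 FPKM, median-of-ratios scaling, no trend, limits of 50 and 200 kb, leaving out each library and, after the data were seen, the titles as a term.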

Additional observations from a re-analysis of the deposited data

Results flagged for a closer look

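In 10 of 71 named transcripts and shares, 1 of the 4 libraries lay far from the other 3. Chance gives about 1 in 20 for values with a continuous spread, a rate that does not hold for transcripts near 0, where a lone detected value always lies far from the rest. LINC02109, among the most remote members, stood at 62.3 FPKM in replicate 2 against 51.5 to 53.3 in the others. LINC00861, of immune cells, stood at 12.8 FPKM in replicate 3 against 10.4 to 10.6. LINC00844, of liver, was listed at 0 FPKM in replicate 4 against 0.52 to 0.56. The other 7 were low transcripts detected mainly or wholly in a single library: for LINC03000 at 1.58 and 0.95 FPKM in replicate 4 and 1.34, 0.87 and 0.76 FPKM in replicate 2, for LINC00470 at 0.67 FPKM in replicate 2 and for LINC00494 at 0.57 FPKM in replicate 2. The library that stood apart was replicate 2 in 6 of the 10 cases.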

How the results depend on the processing

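No paired analysis was run, because the titles number the 4 libraries in series and do not say which Huh7-L and Huh7-H libraries belong together, if any. With the titles as a term, a choice made after seeing the data, 186 members were above and 299 below. Leaving out each library, the members called were 181 to 189 above and 279 to 284 below 5 FPKM, and the share with a mean above 5 FPKM was 18.0% to 18.8%. At a threshold of 1 FPKM, 297 transcripts were above and 132 below, and 74 genes were below, with a share of 30.9%. At 10 FPKM the share was 13.8%, and 15.5% were above 5 FPKM in all 4 libraries. Without the filter on low values, 944 transcripts and 486 genes were below, since transcripts near 0 entered the test. More than 50 kb from coding genes, 285 transcripts were above and the share was 20.1%, and beyond 200 kb, 196 transcripts and 110 genes were below and the share was 19.6%. With the same version only, 106 were above and 157 below, with a share of 19.3% (the share added after the data were seen). Members under 25% repeated sequence had a share of 16.5%. Those with no repeated sequence, a choice made after seeing the data, had 20 above, 148 below and a share of 4.56%. Other changes of pseudocount, scaling or trend left these counts within 1.5 times. Members next to 5 FPKM changed sign without being placed on either side. The log2 difference of LINC00299 was -0.0030 with a pseudocount of 0.1 and -0.0018 with median-of-ratios scaling. Leaving out a library, it ran from -0.087 to 0.18 for LINC00299, from -0.10 to 0.15 for LINC01194, from -0.11 to 0.11 for LINC00992, from -0.21 to 0.12 for LINC01186, from -0.18 to 0.091 for LINC02472, from -0.11 to 0.10 for LINC02008, from -0.19 to 0.049 for LINC01266 and from -0.48 to 0.10 for LINC02398. LINC00458 was below 5 FPKM (log2 difference -0.71) by its highest transcript alone. At about 12.5 fragments for 5 FPKM at the median length, depth limits the placing of members near the threshold, and the part of repeats and shared isoform reads in the highest levels was not tested.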
